A study of Ovis aries with 17 samples.

Results

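*CD14* and *ITGAM* encode the surface proteins by which monocytes and macrophages are usually recognised, and they were examined here as 2 of the 426 genes that carried a symbol on a custom ovine array of 15060 probes. They were chosen by probe, 1 for *CD14* and 1 for *ITGAM*, whatever their level. A second *CD14* probe on the same array is given beside the first. Each value is a level on the log2 scale relative to the 75th percentile of the spot signals of its own array, so that 0 is the 75th percentile itself and each step of 1 is a doubling.

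The study sorted or cultured 6 candidate subsets of sheep mononuclear cells from control animals to find their counterparts in other mammals. B lymphocytes (B, 4 arrays) and macrophages (MP, 3 arrays) came from spleen. MP were taken with an antibody to CD14 and B with an antibody to ruminant B cells. Plasmacytoid dendritic cells (pDC, 3 arrays), which are specialised in interferon production, came from low density blood cells and were positive for CD45RB and negative for CD11c and CD11b. The conventional dendritic cells also came from low density blood cells, and were positive for CD11c and negative for CD11b, CD45RB, γδ T cell receptor and B cell antigen. Those high for CD172 and low for CADM1, labelled DC XCR1-, are called cDC2 here (3 arrays), and those high for CADM1 and low for CD172, labelled DC XCR1+, are called cDC1 (1 array). Dendritic cells labelled MoDC (3 arrays) came from independent cultures with the growth factor GM-CSF, and both the names of their files and the paper speak of bone marrow. The labels name no LPS or other stimulus for any subset.

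The series description counts as many sheep or cultures as arrays in each subset. The extraction notes add that small yields were combined across animals, and 2 arrays, cDC2 replicate 2 and cDC1, have the word pool in their file names. The p-values below therefore measure the spread between arrays, which may in part be technical. MP and B shared the spleen as source, and pDC, cDC2 and cDC1 shared blood. In pairs across spleen, blood and culture, subset and source cannot be told apart.

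CD14 is a protein with leucine-rich repeats, anchored to the outer face of the membrane, which receives lipopolysaccharide (LPS) from LPS-binding protein and hands it to the receptor complex of TLR4 and MD-2. It is abundant on blood monocytes and many macrophages, and it also exists as a soluble protein. *ITGAM* encodes CD11b, the alpha chain that pairs with CD18, the product of *ITGB2*, to form complement receptor CR3 (also called Mac-1). CR3 binds opsonised particles, fibrinogen and the endothelial ligand ICAM-1, and is typical of monocytes, macrophages, neutrophils and natural killer cells.

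Both proteins were also gates of the sorts. CD14 selected MP, and CD11b was an exclusion marker of pDC, cDC2 and cDC1. High *CD14* in MP and low *ITGAM* in the sorted blood subsets were thus selected for at the protein level. *CD14* comparisons with MP, and *ITGAM* comparisons between a blood subset and B, MP or MoDC, are given as values with no p.

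The probes are shown because every level below rests on how these stretches hybridised. The second *CD14* probe and the *ITGAM* probe are given whole, at 60 bases, and the first *CD14* probe by its first 30 bases, all 5′ to 3′ as deposited with the arrays.
CD14 first probe: tgtttttagccttgaccactttaaatctca
CD14 second probe: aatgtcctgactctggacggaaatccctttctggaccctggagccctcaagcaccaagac
ITGAM: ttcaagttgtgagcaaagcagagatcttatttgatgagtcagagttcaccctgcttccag
The first *CD14* probe and the *ITGAM* probe have 43.3% G and C over their whole length, the median of all 15060 probes, and the second *CD14* probe has 55%. No other probe on the array shares a run of 20 bases with any of them. Each *CD14* probe was printed 5 times per array and the *ITGAM* probe once. The files list these probes as unmapped to a genome, so positions are not given.

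The 75th percentile of the spot signals, the basis of the scale, lay between 194 and 688 units of brightness over the 17 arrays, and 61.1% (MP replicate 1) to 80.2% (cDC2 replicate 2) of spots were well above background. No spot was saturated. MoDC replicate 3 stood apart from its replicates: its correlation with them across 11549 probes was 0.866 and 0.882, against 0.907 to 0.989 for the 16 other pairs of replicates. Calls of *CD14*, *ITGAM* and the listed LPS, integrin and phagocyte genes that changed without it are given beside the results. Calls were also repeated under 9 other settings of the processing (8 for the second *CD14* probe) and with each of 16 arrays left out in turn. Among listed genes this covered the LPS, integrin and phagocyte lists, in pairs with MP or MoDC. Numbers 1 to 3 of B, pDC, MP and MoDC lay on slides 1 to 3, while cDC2, cDC1 and B replicate 4 lay on slide 4, so that differences from cDC2 are linked to the other slides only through 1 B array.

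The labels were set against other markers of each cell type. *CR2*, a complement receptor of B cells, lay between 4.20 and 4.25 on the B arrays and at or below -0.53 on all others. Only 2.94% of probes carried a symbol, so a gene without a named probe may still be on the array. Of 40 listed monocyte and macrophage genes 4 had a named probe and 3 were measurable: *CSF1R* (the receptor for macrophage colony-stimulating factor), *LYZ* (lysozyme) and *SLC11A1* (a metal transporter of phagosomes). Their summed signal ranged from 7.91 to 8.04 in MP, 5.51 to 6.39 in MoDC, 5.50 to 5.74 in cDC2, 1.21 to 3.02 in B and -0.43 to 1.53 in pDC, and was 4.90 in cDC1. Such a sum leans on its brightest gene, by mean *LYZ* in MP (7.49) and cDC2 (5.40) and *SLC11A1* in MoDC (5.47). *SIRPA* was not above background on any array, cDC2 included, although its product CD172 was the gate of cDC2. On the pDC arrays the summed signal of 4 T and NK cell genes (*CD3D*, *CD3E*, *CD247* and *GNLY*) was 5.48 to 5.62, above its range in every other subset, the next being 2.86 to 3.24 in B. Of 9 listed genes of plasmacytoid dendritic cells 3 had a named probe (*TCF4*, *IRF8* and *TLR9*), and their sum, 4.56 to 5.72 in pDC, was higher in cDC1 (6.44) and at most 4.55 elsewhere. This sum leans on *IRF8*, at 6.44 in cDC1 and a mean of 4.85 in pDC. *TCF4* went the other way, with its highest mean in pDC (1.19, against 0.85 in B and 0.72 in cDC2) and -2.41 in cDC1. The sum of 5 genes of conventional dendritic cells was 6.56 in cDC1 and 2.97 to 3.28 in cDC2, and at most 2.76 elsewhere. Of 10 listed neutrophil genes only *LTF* (lactoferrin) had a named probe. It was highest in MoDC, at -0.20 to 1.54, against -3.41 to -0.99 in MP, -3.22 to -1.97 in cDC2, -2.87 in cDC1 and at most -3.42 in B and pDC, and was called higher in MoDC than in B, pDC, MP and cDC2. The means of *LTF* and of *ITGAM* were both highest in MoDC, and *LTF* but not *ITGAM* overlapped between MP and cDC2. *HBB*, a globin gene of red cells, lay between -2.88 and 0.83 in the 3 blood subsets and at most at -4.63 elsewhere. The part of these other cell types in the *CD14* and *ITGAM* levels was not tested.

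*CD14* was very high in both MP and MoDC, intermediate in both kinds of cDC and low in pDC and B. With the first probe it read 5.29, 6.84 and 6.23 on the 3 MP arrays and 5.87, 6.03 and 6.75 on the 3 MoDC arrays. It read 3.62, 3.58 and 3.69 in cDC2 and 3.02 in cDC1. These 10 arrays all lay above the pDC arrays, at 0.06, -0.20 and 0.15, and the B arrays, at -0.80, -1.52, -1.14 and -1.19. MP and MoDC overlapped, and no array of any other subset reached them. The probe was well above background on all 17 arrays, with a median SD between its spots of 0.06; the SD between arrays was larger than this in every subset but cDC2.

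**Figure D1:**
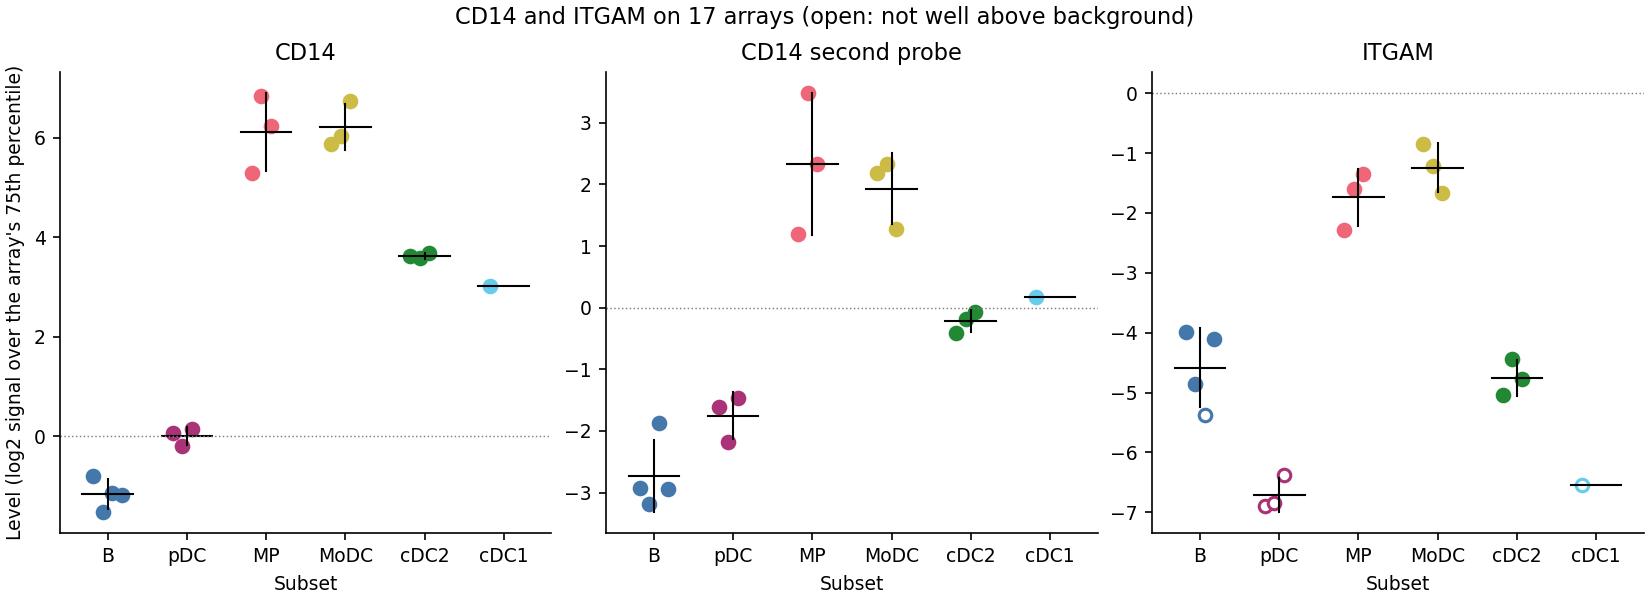
Level of *CD14* (both probes) and *ITGAM* on each array, as log2 of the signal over the array's 75th percentile, by subset. Points are arrays (open where the probe was not well above background), horizontal lines are means and vertical lines are 1 SD (none for the single cDC1 array). MP and MoDC lie above all other subsets in each panel, and *ITGAM* was not measured above background in pDC or cDC1.

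The mean level of *CD14* was 6.21 ± 0.47 (SD, n = 3) in MoDC, 6.12 ± 0.78 (SD, n = 3) in MP, 3.63 ± 0.06 (SD, n = 3) in cDC2, 0.00 ± 0.18 (SD, n = 3) in pDC and -1.16 ± 0.29 (SD, n = 4) in B lymphocytes. Between subsets whose sort did not use CD14, all 6 pairs were called, a call being an adjusted p (limma, Benjamini-Hochberg over 11549 probes) under 0.05 together with at least a 2-fold difference. MoDC exceeded B by 7.38 on the log2 scale, or 166-fold (95% interval 6.65 to 8.11, limma adjusted p = 1.68e-09), where 36.2% of all probes were called between these subsets. MoDC exceeded pDC 74.2-fold (limma adjusted p = 1.47e-08, 33.1% of probes called) and cDC2 5.99-fold (limma adjusted p = 0.000111, 33.6% of probes called). Even the lowest MoDC array was 4.52 times the highest cDC2 array. Without MoDC replicate 3 the difference between MoDC and cDC2 was 2.32 on the log2 scale (limma adjusted p = 0.000379), against 2.58 with it.

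The cDC2 carried a clear *CD14* signal although they were sorted as conventional dendritic cells. Their mean exceeded that of B by 4.79 on the log2 scale, 27.7-fold (limma adjusted p = 6.60e-07, with 23.3% of probes called), and that of pDC by 3.63, 12.4-fold (limma adjusted p = 1.30e-05, with 20.4% of probes called). The single B array on slide 4 lay 4.76 to 4.88 below the 3 cDC2 arrays of the same slide. The lowest cDC2 array was 10.8 times the highest pDC array. The 3 measurable monocyte and macrophage genes were also all called higher in cDC2 than in pDC, and whether the *CD14* signal belonged to the dendritic cells themselves was not tested. In RNA of sorted populations a smaller number of expressing cells and less RNA per cell cannot be told apart.

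Of these 6 pairs, pDC and B differed least. It was 1.16 on the log2 scale, 2.24-fold (95% interval 0.43 to 1.89, limma adjusted p = 0.0450), in a pair in which 9.25% of probes were called. Every pDC array lay above every B array, with a minimal ratio (the lowest array of one subset over the highest of the other) of 1.52, under the 2-fold minimum that the study's methods set for this ratio. The call was lost in 4 of the 9 other settings (adjusted p = 0.0690 with slide as a block), and on leaving out any 1 of 12 of the 16 arrays (adjusted p up to 0.142), the exceptions being MP replicates 1 and 2 and MoDC replicates 1 and 3. With the second probe it was not made.

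MP overlapped MoDC and exceeded the rest. MP was lower than MoDC by a mean of 0.09 on the log2 scale, with a 95% interval of the difference (MP minus MoDC) from -0.88 to 0.69. On the 3 slides that held both, MP minus MoDC was between -0.58 and 0.81. MP exceeded cDC2 5.61-fold (interval 1.71 to 3.27 on the log2 scale), pDC 69.5-fold (5.34 to 6.90) and B 156-fold (6.55 to 8.01). Among all probes, 25.9% were called between MP and MoDC, 11.4% between MP and cDC2, 26.1% between MP and pDC and 24.5% between MP and B.

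The second *CD14* probe gave the same order of MP and MoDC over cDC over pDC and B, with smaller differences. It read 1.19, 3.48 and 2.33 in MP and 2.18, 2.34 and 1.28 in MoDC. In cDC2 it read -0.41, -0.18 and -0.06, in pDC -1.60, -2.18 and -1.46, and in B -2.92, -3.18, -1.86 and -2.94. B replicate 3 thus overlapped pDC, which no B array did with the first probe. MoDC exceeded B 25.3-fold with this probe (limma adjusted p = 2.42e-06), against 166-fold with the first, and exceeded pDC 12.8-fold (limma adjusted p = 4.99e-05) and cDC2 4.44-fold (limma adjusted p = 0.00483, lost with slide as a block at 0.247). The cDC2 exceeded B 5.69-fold (limma adjusted p = 0.00141) and pDC 2.89-fold (limma adjusted p = 0.0439). The latter call was lost in 5 of 8 other settings (adjusted p = 0.422 with slide as a block) and without any 1 of 10 of the 16 arrays. The difference between pDC and B was 0.98 on the log2 scale (limma adjusted p = 0.246) and was not called.

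The 2 probes disagreed on details within the high and intermediate subsets. MoDC replicate 3 was the highest MoDC array with the first probe, at 6.75, and the lowest with the second, at 1.28. The single cDC1 array lay below all cDC2 arrays with the first probe, 1.47-fold under the lowest, and above all of them with the second, 1.17-fold over the highest. The order of *CD14* in cDC1 and cDC2 was therefore not settled. Over the 17 arrays the probes correlated with a Pearson r of 0.96 and a Spearman rho of 0.96. These are descriptions, since arrays of 1 subset share their cell type and arrays of 1 slide their hybridisation.

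**Figure D2:**
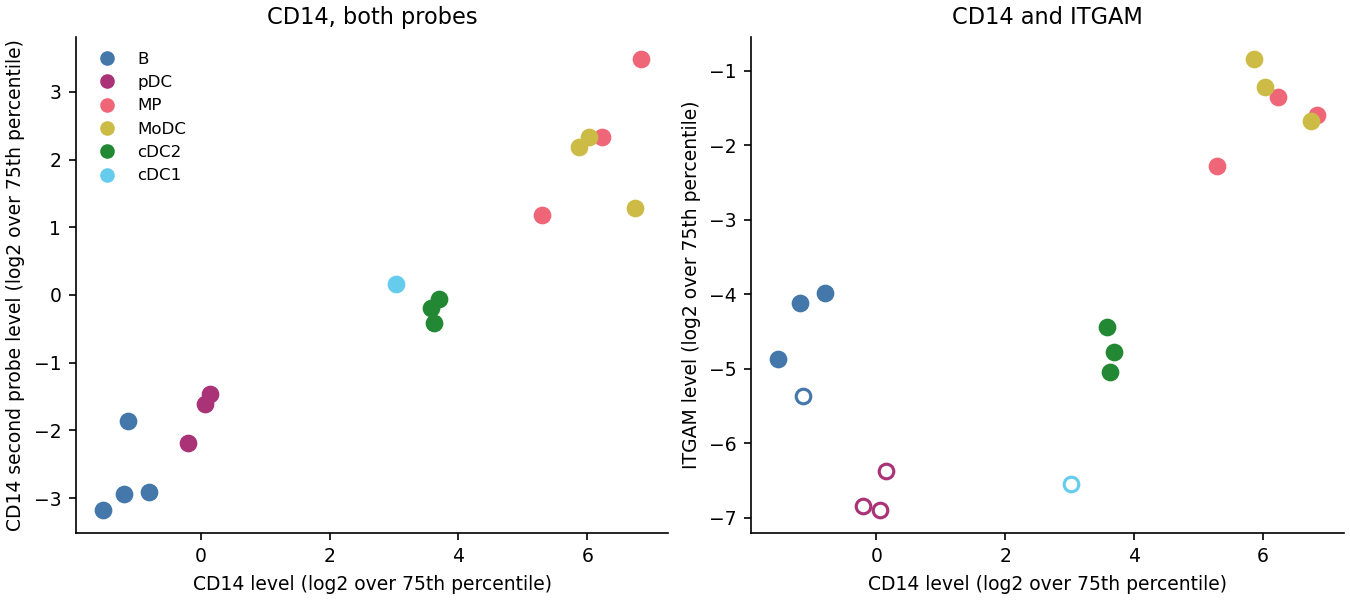
Level of *CD14* (first probe, x axis) against the second *CD14* probe (left) and *ITGAM* (right), both as log2 over the array's 75th percentile, with 1 point per array coloured by subset and open where *ITGAM* was not well above background. The *CD14* probes rise together (r = 0.96) except for MoDC replicate 3, while *ITGAM* separates MP and MoDC from cDC2 and does not follow *CD14* among B, pDC and cDC.

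*ITGAM* was highest in MoDC and MP, lower in B and cDC2, and not well above background in pDC and cDC1. It read -0.85, -1.21 and -1.67 on the MoDC arrays and -2.28, -1.59 and -1.35 on the MP arrays. It read -3.98, -4.86, -5.37 and -4.11 in B, of which the third was not well above background, and -5.04, -4.44 and -4.77 in cDC2. On the pDC arrays it read -6.90, -6.84 and -6.38 and on the cDC1 array -6.55, none of them well above background. MP and MoDC overlapped each other, B and cDC2 overlapped each other, and the lowest MP array lay 1.71 on the log2 scale above the highest array of B. The probe was dim, with a processed signal of 2.38 to 297 units, 12 of 17 arrays well above background and 1 spot per array, so no error between spots can be given.

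The mean level of *ITGAM* was -1.24 ± 0.41 (SD, n = 3) in MoDC, -1.74 ± 0.48 (SD, n = 3) in MP, -4.58 ± 0.65 (SD, n = 4) in the B lymphocytes and -4.75 ± 0.30 (SD, n = 3) in cDC2. Among the subsets not gated on CD11b, MP exceeded B by 2.84 on the log2 scale, 7.17-fold (95% interval 2.06 to 3.63, limma adjusted p = 4.25e-05), and MoDC exceeded B by 3.34, 10.1-fold (2.55 to 4.12, limma adjusted p = 5.16e-06). On the slides shared by the subsets, MP minus B was between 1.71 and 4.02 and MoDC minus B between 3.14 and 3.70. With normexp on the median intensities, which changes the signal used, its background correction and its offset together, these differences were 1.24 and 1.53 on the log2 scale, still called at limma adjusted p of 0.00216 and 0.000213. MoDC and MP differed by 0.50 (limma adjusted p = 0.376), with a 95% interval of MP minus MoDC from -1.34 to 0.34.

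The B arrays were not uniform for *ITGAM*. On B replicates 1 and 4 it read -3.98 and -4.11, and *CSF1R* on the same arrays was well above background at -3.81 and -3.43. On B replicates 2 and 3 *ITGAM* read -4.86 and -5.37, and *CSF1R*, at -5.90 and -6.31, was not well above background. *SLC11A1* was likewise higher on replicates 1 and 4 (2.20 and 1.67) than on replicates 2 and 3 (0.29 and -0.22). *CD14* followed this order only in part, at -0.80 and -1.19 against -1.52 and -1.14. The part of macrophage RNA in the B levels of *ITGAM* was not tested.

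In the blood subsets the CD11b-negative gate limits what can be read. The pDC arrays allow only bounds: MP was at least 12.3-fold and MoDC at least 17.3-fold above the lowest signal that counted as well above background there, and B was at least 1.71-fold above it. Against the cDC1 array the bounds were 7.90-fold for MP, 11.1-fold for MoDC and 1.10-fold for B. MP exceeded cDC2 8.05-fold (95% interval 2.17 to 3.85 on the log2 scale) and MoDC exceeded cDC2 11.4-fold (2.67 to 4.34), differences of 3.01 and 3.51 that fell to 1.30 and 1.59 with normexp. With normexp pDC minus cDC2 was -0.032 and B minus cDC2 0.061. The folds of MP, MoDC and B over pDC then fell under their bounds, which hold for the main processing only. B exceeded cDC2 by 0.17 on the log2 scale, with an interval from -0.62 to 0.95. With slide as a block it was 0.64, and B replicate 4, the only B array on the slide of cDC2, lay 0.33 to 0.93 above the 3 cDC2 arrays.

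cDC2 and pDC were both sorted as CD11b-negative, and *ITGAM* was detected in the former on 3 of 3 arrays and in the latter on 0 of 3. The difference passed the test (limma adjusted p = 0.00241), but as a bound it was only at least 1.52-fold. As pDC minus cDC2 on the log2 scale it was -1.96, and it did not pass with the authors' own processed values (-0.45, adjusted p = 0.126), with normexp (-0.032, adjusted p = 0.968) or with slide as a block (-1.33, adjusted p = 0.434). No fold could be given against cDC1, since the cDC2 mean lay below the lowest well-detected signal of that array, -4.72.

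**Figure D3:**
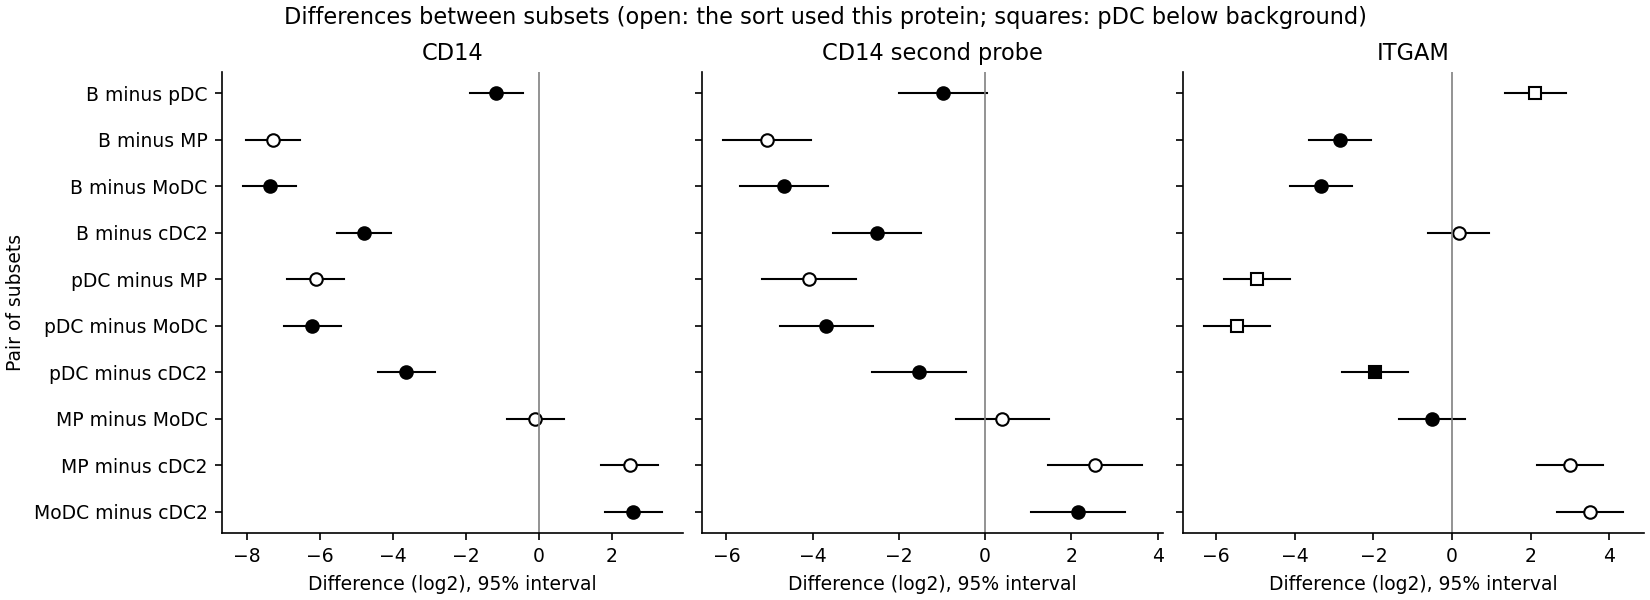
Difference between each pair of subsets (first minus second, log2) for *CD14*, its second probe and *ITGAM*, with the 95% interval of the limma fit over 17 arrays. Open symbols mark pairs in which the protein itself was used in the sort and squares mark pairs with *ITGAM* below background in pDC; MP minus MoDC is the pair nearest to 0 in all 3 panels apart from B minus cDC2 for *ITGAM*.

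The levels of the members can be set side by side within each array without comparing one probe's brightness with the other's. Over the 17 arrays *CD14* and *ITGAM* correlated with a Pearson r of 0.76 and a Spearman rho of 0.65, as a description. Both were highest on the 6 arrays of MP and MoDC. They parted in the other subsets: cDC2 was 27.7-fold above B for *CD14* but overlapped B for *ITGAM*. The pDC arrays lay above B with the first *CD14* probe, a difference that was not called with the second, and below B for *ITGAM*, where the gate excluded CD11b and no pDC array was well above background. In MP, replicate 1 was the lowest array for both *CD14* probes and for *ITGAM*, and it had the smallest share of spots well above background.

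The partners of both proteins were then examined. Of 41 listed genes of LPS recognition and signalling, 3 had a named probe, while *TLR4*, *LY96* (MD-2) and *LBP* had none. *TLR2*, the receptor for bacterial lipopeptides that also uses CD14, read 0.36, 1.11 and 1.42 in MP, 1.21, 1.30 and -0.15 in MoDC, -0.20, 0.81 and 0.41 in cDC2 and -0.58 in cDC1. It lay between -2.06 and -1.39 on the B arrays and between -4.34 and -2.78 on the pDC arrays, so B and pDC were below all other arrays and did not overlap. *TLR2* was called higher in MP than in B (6.11-fold, limma adjusted p = 0.000446) and pDC (22.8-fold, adjusted p = 6.67e-06), and in MoDC than in B (5.42-fold, adjusted p = 0.000478) and pDC (20.2-fold, adjusted p = 5.69e-06). It was not called between MP, MoDC and cDC2. With normexp *TLR2* was -3.03 in pDC minus MP and -2.92 in pDC minus MoDC on the log2 scale, still called but smaller than the folds given.

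*ITGB2*, the partner chain of CD11b and also counted in the LPS list, was strongly expressed in every subset. It read 5.57, 5.57 and 5.47 in MP, 6.04, 5.63 and 3.93 in MoDC, 4.54, 4.49 and 4.54 in cDC2 and 5.38 in cDC1. It lay between 2.92 and 3.82 in B and between 3.35 and 4.28 in pDC, so MoDC replicate 3 fell within the range of pDC while its other replicates were the highest arrays of all. MP exceeded B 4.32-fold (limma adjusted p = 0.00144) and pDC 3.24-fold (adjusted p = 0.00982), and MoDC exceeded B 3.42-fold (adjusted p = 0.00338) and pDC 2.57-fold (adjusted p = 0.0277). The call between MoDC and pDC was lost in 3 of 9 other settings (adjusted p up to 0.175) and without any 1 of MoDC replicates 1 and 2 and pDC replicates 1 and 3 (up to 0.111), and that between MP and pDC without pDC replicate 1 (adjusted p = 0.0501). Without MoDC replicate 3, *ITGB2* was also called higher in MoDC than in cDC2, by 1.31 on the log2 scale (limma adjusted p = 0.00472).

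Of 33 listed genes of beta2 integrins, their ligands and activators, 3 had a named probe, namely *ITGB2*, *ITGAL* and *ICAM1*. *ITGAL* encodes CD11a, the alpha chain of LFA-1, which shares CD18 with CD11b. It ranged only from -3.67 to -1.05 over the 17 arrays, and was called lower in MoDC than in cDC2 (adjusted p = 0.0452 by limma), a call that was lost without MoDC replicate 3 (adjusted p = 0.166), without any 1 of 9 other arrays and in 7 of 9 other settings. *ICAM1*, the ligand of both integrins, read 1.24 and 1.13 on MoDC replicates 1 and 2, -0.69, -1.85 and -0.57 in MP with MoDC replicate 3 inside that range, and -3.21 to -1.82 in B. It was higher in MoDC than in B (8.45-fold, limma adjusted p = 0.000432), pDC (34.6-fold, adjusted p = 9.83e-06) and cDC2 (4.20-fold, adjusted p = 0.0144), and higher in MP than in B (3.00-fold, adjusted p = 0.0465) and pDC (12.3-fold, adjusted p = 0.000305). Without MoDC replicate 3 it was also called higher in MoDC than in MP (adjusted p = 0.00480). The call between MP and B was lost in 4 of 9 other settings and without any 1 of 9 of the 16 arrays (adjusted p up to 0.156). That between MoDC and cDC2 was lost with slide as a block (adjusted p = 0.258) and without MoDC replicate 1 (0.0520) or 2 (0.0599). With normexp *ICAM1* was -3.03 in pDC minus MoDC and -1.85 in pDC minus MP on the log2 scale, still called but smaller than the folds given.

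**Figure D4:**
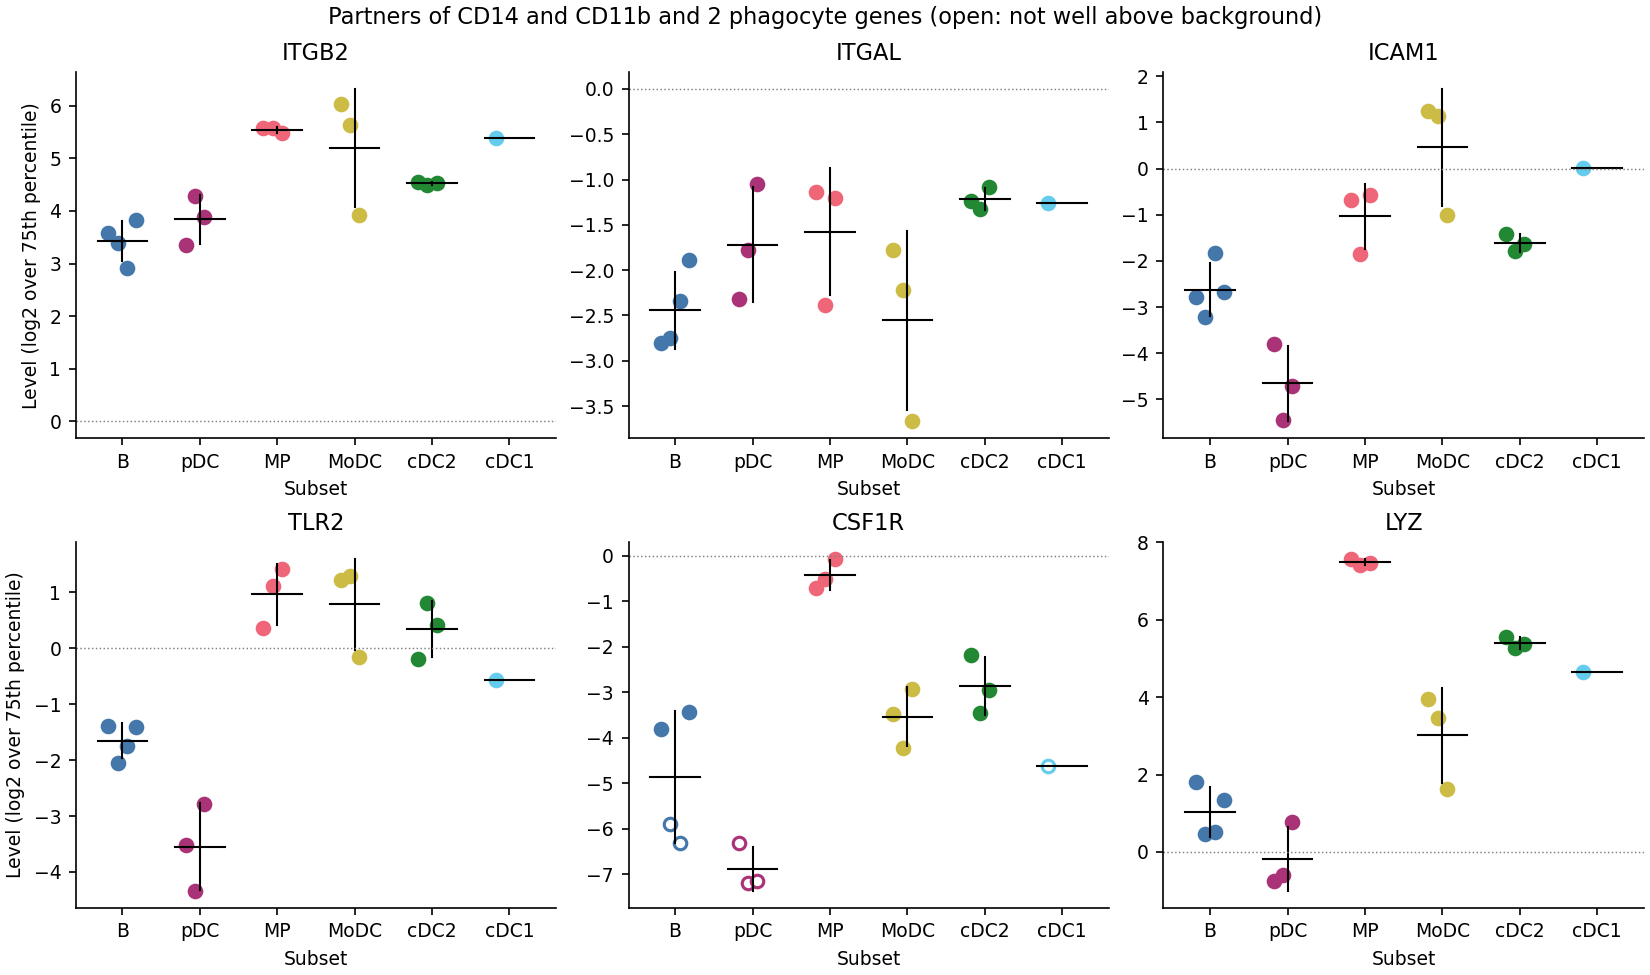
Levels (log2 over the array's 75th percentile) of *ITGB2*, *ITGAL*, *ICAM1*, *TLR2*, *CSF1R* and *LYZ* on each of the 17 arrays by subset, with means and 1 SD (none for cDC1) and open points where the probe was not well above background. MP replicates lie close together for *ITGB2*, *CSF1R* and *LYZ*, whereas MoDC replicate 3 falls below its replicates for *ITGB2*, *ITGAL*, *ICAM1*, *TLR2* and *LYZ*.

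*CD14* and *ITGAM* overlapped between MP and MoDC, whereas the phagocyte genes *CSF1R* and *LYZ* did not. *CSF1R* read -0.71, -0.51 and -0.07 in MP against -3.48, -4.22 and -2.92 in MoDC, and *LYZ* read 7.58, 7.42 and 7.46 in MP against 3.95, 3.45 and 1.63 in MoDC. *CSF1R* was 8.63-fold (limma adjusted p = 0.00320) and *LYZ* 22.3-fold higher in MP (adjusted p = 4.63e-05), and both calls were also made without MoDC replicate 3. With normexp the difference of *CSF1R* was 2.05 on the log2 scale. *LYZ* was higher in cDC2 than in MoDC as well (5.24-fold, adjusted p = 0.00416), the opposite order to *CD14* and *ITGAM*. *SLC11A1* overlapped between MP and MoDC, at 5.61 to 6.45 and 4.96 to 6.33, and was called higher in MP than in cDC2 (10.5-fold, limma adjusted p = 0.00809) and in MoDC than in cDC2 (6.46-fold, adjusted p = 0.0109). Unlike *CD14*, it was called higher in B than in pDC (5.48-fold, limma adjusted p = 0.0355, with 9.25% of probes called). The 2 subsets overlapped, at -0.22 to 2.20 in B and -2.94 to 0.24 in pDC, and this call was not repeated under other settings.

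All 3 measurable genes of this list were called higher in MP than in B (24.5% of all probes called), pDC (26.1%) and cDC2 (11.4%), with medians of 5.18, 7.64 and 2.43 on the log2 scale. *CSF1R* was not above background in pDC, which MP exceeded at least 30.4-fold in the main processing. With normexp *CSF1R* in pDC minus MP was -2.47 on the log2 scale, smaller than that bound. With slide as a block none of the 3 was called between MP and cDC2 (adjusted p = 0.0583 for *CSF1R*, 0.32 for *LYZ* and 0.150 for *SLC11A1*), nor *LYZ* (0.244) or *SLC11A1* (0.112) between MoDC and cDC2. Between MP and cDC2 the call of *LYZ* was also lost without any 1 of the 6 arrays compared, and that of *CSF1R* without any 1 of them but cDC2 replicate 1.

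Genes that LPS induces in phagocytes were present in cells that had received no stimulus in the labels, and they split MP from MoDC. Of 30 listed products 14 had a named probe and 13 passed the filter on dim probes, *CSF2* being the one left out. Between MP and MoDC 3 were called higher in MP and 6 higher in MoDC, 9 of 13 beside 25.9% of all probes, with a median of MP minus MoDC of -1.50 (-1.36 with genes below background set to their bound) against 0.23 over all probes. Higher in MP were *PTGS2*, the inducible enzyme of prostaglandin synthesis (63.9-fold, limma adjusted p = 0.000547), the interferon-induced chemokine *CXCL10* (24.6-fold, adjusted p = 0.00291) and the anti-inflammatory cytokine *IL10* (3.73-fold, adjusted p = 0.0422). Higher in MoDC were *IL1A* (53.2-fold, adjusted p = 0.000292) and *IL1B* (6.23-fold, adjusted p = 0.0123), which encode both forms of interleukin 1, the neutrophil chemokine *CXCL8* (41.1-fold, adjusted p = 0.000657), *IL6* (at least 2.57-fold over MP, where it was not above background, adjusted p = 0.00237) and the growth factor *VEGFA* (adjusted p = 0.0261), which was above background on 1 of 3 MP arrays, so that its fold is not given. The call of *IL10* was lost without MoDC replicate 3 (adjusted p = 0.0644), without any 1 of 9 other arrays and in 4 of 9 other settings. That of *IL1B* was lost without MP replicate 2 (0.0580) or MoDC replicate 2 (0.0543), and that of *VEGFA* without MP replicate 1 (0.0841) or 3 (0.115) or MoDC replicate 1 (0.0861). With only MP and MoDC in the fit *IL1B* (adjusted p = 0.104), *VEGFA* (0.0853), *IL10* (0.0964) and *TNF* (0.0662) were not called. With normexp *VEGFA* (adjusted p = 0.223) and *IL6* (0.435) were not called. The sixth, *TNF*, is named only because its 2 probes disagreed, a choice made after its values were seen: the brighter probe was higher in MoDC by 2.04 on the log2 scale (adjusted p = 0.00340) and the dimmer was not called (adjusted p = 0.238), with an r of 0.46 between them over 17 arrays.

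**Figure D5:**
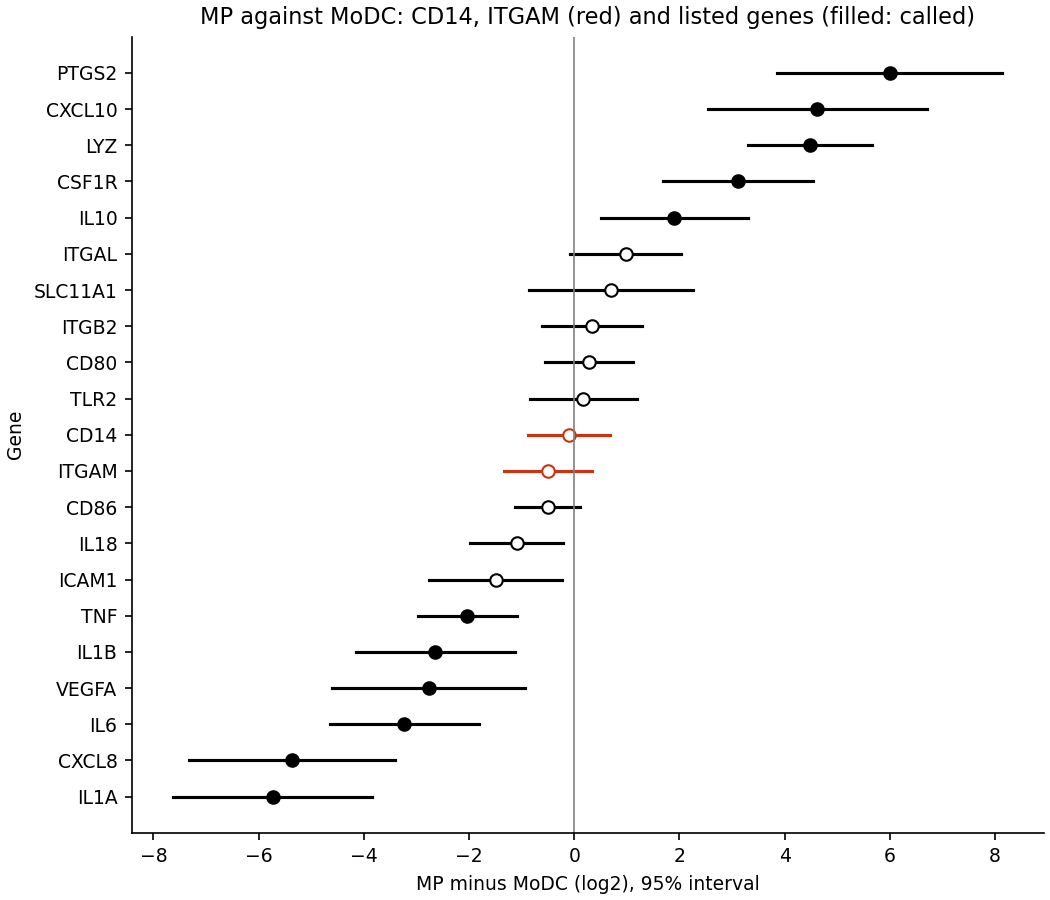
MP minus MoDC (log2, with the 95% interval of the limma fit) for *CD14* and *ITGAM* (red) and for listed genes of their pathways, of LPS response and of phagocytes, ordered by size and filled where called. *CD14* and *ITGAM* lie near 0 between *PTGS2*, *CXCL10*, *LYZ*, *CSF1R* and *IL10*, higher in MP, and *IL1A*, *CXCL8*, *IL6*, *VEGFA*, *IL1B* and *TNF*, higher in MoDC.

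Against B and pDC, most of these products were called higher in MP and MoDC. In MP 8 of 13 were called higher than in B (24.5% of all probes called in either direction) and 8 higher than in pDC (26.1%), with medians of 2.62 and 3.60 on the log2 scale. In MoDC 8 were called higher than in B (36.2% of all probes) and 11 higher than in pDC (33.1%). Without MoDC replicate 3 these MoDC counts were 7 and 9: *CD86*, a costimulatory ligand, was lost from both and *CXCL10* from the second (adjusted p = 0.0903). The one call in the other direction was *IL6*, higher in B than in MP, at least 2.24-fold (limma adjusted p = 0.00187, not called with normexp at 0.479). Without MoDC replicate 3 *CXCL10* was a further one, higher in B than in MoDC by 2.86 on the log2 scale (adjusted p = 0.0263). Against B the largest difference was that of *CXCL8*, which was 208-fold higher in MP than in B (limma adjusted p = 1.06e-05) and 8540-fold higher in MoDC (adjusted p = 3.38e-08), with 2 of 4 B arrays above background. These folds are of log2 differences (B minus the other) of -7.70 and -13.06, which with normexp were -4.87 and -10.34, so their size is not settled. Between MoDC and cDC2 6 of 13 were called higher in MoDC and 0 lower (33.6% of all probes called), with a median of 1.81; without MoDC replicate 3 *CXCL10* was called lower in MoDC, by 3.24 on the log2 scale (adjusted p = 0.0216). Among the 6 were *IL1A* (763-fold, limma adjusted p = 2.39e-06, with 2 of 3 cDC2 arrays above background), *CXCL8* (143-fold, adjusted p = 4.82e-05), *IL1B* (91.6-fold, adjusted p = 1.11e-05), *ICAM1* and *IL18* (3.52-fold, adjusted p = 0.00388). Between MP and cDC2 (11.4% of all probes called) 4 of 13 were higher in MP (*PTGS2*, *IL1B*, *IL1A* and *IL10*, at 134-fold, 14.7-fold, 14.3-fold and 12.1-fold) and 1 was lower, *IL6*, whose call was lost and whose sign turned with normexp. Of these 5 calls only that of *IL1A* was made with slide as a block (adjusted p = 0.0329), and it was lost without cDC2 replicate 3 (0.0655). With normexp *IL1A* differed from cDC2 by 1.32 in MP and 6.03 in MoDC on the log2 scale, against 3.84 and 9.58.

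The named genes whose levels followed each member most closely were then listed, by Pearson r over the 17 arrays among 270 named genes. Among the 5 closest to *CD14* were *ACVR1* (0.96), a receptor of the BMP and activin family, *PDXK* (0.95), which activates vitamin B6, *IL18* (0.93) and *CXCL8* (0.93). *ACVR1* spanned less than *CD14*: its means were 0.64 in MP, 0.48 in MoDC, 0.10 in cDC2, -0.33 in cDC1, -1.49 in pDC and -2.10 in B. Over the whole array 12 probes had a higher r with *CD14* than *ACVR1*. The lowest r were those of *MLN*, the gene of the gut hormone motilin (-0.95), *CD3D*, a chain of the T cell receptor complex (-0.87), and the chemokine *CCL25* (-0.85).

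For *ITGAM* the closest were *IL1B* (0.92), *FTH1* (0.91), the heavy chain of the iron store ferritin, *SLC11A1* (0.90), *IL15* (0.89) and *ALDH1A1* (0.87), an enzyme of retinoic acid synthesis. No gene was on both lists. *FTH1* was abundant on every array, with means of 8.71 in MoDC, 8.57 in MP, 7.79 in B, 7.57 in cDC2, 7.32 in pDC and 6.87 in cDC1. *ALDH1A1* averaged 4.34 in MoDC, 1.40 in MP and at most -0.06 in any other subset. The lowest r with *ITGAM* were those of *CA11* (-0.91), which encodes a carbonic anhydrase-related protein, *SLPI* (-0.88), a secreted inhibitor of leukocyte proteases, and *SERPINC1* (-0.86), the gene of antithrombin. With normexp none of the 5 genes closest to *ITGAM* was among the closest 5, while 3 of the 5 of *CD14* were. These correlations are descriptions over arrays that share cell types and slides.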

How the data were processed

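RNA of 17 samples was hybridised to 1-colour Agilent arrays. The authors read the spots with Feature Extraction (version 10.7.3.1 on 12 arrays, 10.10.1.1 on 5), and the deposited files give a background-corrected intensity and median pixel intensities per spot, with flags of 0 or 1 for outliers and for signals well above background (other values). A deposited table of the whole series gives log2 values processed by the authors, used as an alternative only. Its rows were matched to probes by alphabetical order (r of 0.969 to 0.988 with the own array), and its scaling is not given in the sources used here. The submitters' processing notes name limma.

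Log2 processed intensity minus the array's 75th percentile was averaged over a probe's spots after 273 flagged spots were left out. Of 14842 probes, 11549 passed a filter on dim probes, with over 50% of spots well above background on all arrays of 1 subset or more. Group means were fitted to all 17 arrays with limma 3.58.1 in R 4.3.3 (moderated variances, Benjamini-Hochberg within a pair), after tests on simulated data. Calls needed an adjusted p under 0.05 and 2-fold. A bound takes, in the dim subset, the higher per array of the probe's value and the lowest probe well above background. Symbols are those of the files or, by accession, of RefSeq (ARS-UI_Ramb_v3.0). Genes with several probes used the probe with the highest sum. Listed genes called in a pair with MP or MoDC were named by size, up to 10 per list, with the 5 closest and 3 least close genes by Pearson r. The values of 1 listed gene and of 1 of the closest genes are not reported here. Members and lists were chosen with earlier results of these data known. The number of arrays limits the precision.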

Additional observations from a re-analysis of the deposited data

Results flagged for a closer look

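Among 25 genes or probes examined on the 4 B arrays, 2 had 1 array far from the other 3, where chance gives about 1 in 20 such groups. For *SLPI* the gap of the outlying array was 0.881 of the whole range and for *MLN* 0.860. *MLN* lay between -1.71 and -0.88 on the B arrays and *SLPI* between -4.53 and -3.68. Both genes were listed above for a low correlation with *ITGAM* or *CD14*, and the first *CD14* probe and *ITGAM* showed no such gap in B. The second *CD14* probe, with B replicate 3 at -1.86 and the others between -3.18 and -2.92, had a gap of 0.80 of its range, just under the critical value for 4 arrays.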

How the results depend on the processing

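The *CD14* and *ITGAM* results were recomputed with quantile normalization, with the percentile over detected probes, normexp, the authors' table, no filter, only the compared subsets, slide or replicate number as a block, each array left out, and 1 probe per gene (chosen after seeing the data). No difference of *CD14* or *ITGAM* that was called changed direction. *CD14* in B minus pDC was not called with normexp (-0.89), without the filter (-1.16), with slide as a block (-1.15) or with the replicate block (-1.15, adjusted p = 0.0919), nor without any 1 of 12 of the 16 arrays (-1.28 to -1.04 over all 16). Same-numbered arrays on 1 slide deviated together (r of 0.099 to 0.559 over 18 pairs), and those of cDC2, on another slide, did not (-0.15 to 0.09), so a shared number was a shared slide, and the replicate block changed no other call of *ITGAM* or the first *CD14* probe. *CD14* in B minus MP was -6.73 with normexp. *ITGAM* in pDC minus cDC2 was -0.45 in the authors' table, -0.032 with normexp and -1.33 with slide as a block. In the same order *ITGAM* in MP minus cDC2 was 1.97, 1.30 and 3.64, and in MoDC minus cDC2 2.63, 1.59 and 4.13, with 3.99 after quantile normalization. LPS products called between MP and MoDC numbered 5 in place of 9 with only these subsets fitted, and between MP and cDC2 1 in place of 5 with slide as a block and 3 to 5 with 1 array left out (3 without cDC2 replicate 3). *IL6* in MP minus cDC2 reversed to 0.016 with normexp (it was not above background in MP). Of the 5 genes closest to *CD14* and *ITGAM*, 4 or 5 were kept in each other setting run, and 3 and 0 with normexp. The cause of these changes was not tested. The single dim spot of *ITGAM* limits its folds.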
